A study of Mus musculus with 24 samples.

Results

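The 8 genes described here handle iron and heme in macrophages: Fth1, Ftl1, Slc40a1, Slc11a1, Tfrc, Hmox1, Blvrb and Slc48a1. They are the rows of the gene count matrix whose mouse Ensembl ID maps to these symbols, 8 of 55487 IDs, and each was read in all 24 libraries. The RNA was that of tumor-infiltrating macrophages, gated on CD45, CD11b and F4/80, from MC38 tumors (mouse colon carcinoma) growing orthotopically in C57BL/6J hosts. There were 6 libraries from APC-KO tumor 1, 6 from APC-KO tumor 2, 6 from APC-WT tumor 1 and 6 from APC-WT tumor 2. Genotype names the implanted MC38 cells, which lack or carry the tumor suppressor Apc, and the host strain was the same in all 4 tumors. The labels give no age, sex, clone of the knockout or number of mice behind a tumor, and they call the 6 libraries replicates of 1 sample. The spread between them is thus technical or that of 1 tumor, and the unit for a genotype comparison is the tumor, 2 against 2.

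Iron taken up by a macrophage is stored in ferritin, a shell of heavy (Fth1) and light (Ftl1) chains, or leaves the cell through ferroportin (Slc40a1). Transferrin receptor 1 (Tfrc) brings in iron bound to transferrin, and Slc11a1 (Nramp1) moves divalent metals across the phagosome membrane. Heme from engulfed red cells is carried out of the phagolysosome by Slc48a1 (HRG1), opened by heme oxygenase 1 (Hmox1) with release of iron, and its product biliverdin is reduced to bilirubin by biliverdin reductases, of which Blvrb is one. Iron regulatory proteins bind a stem-loop, the iron-responsive element: bound in a 5′ UTR it holds back translation, and bound in a 3′ UTR it shields the messenger from decay.

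The elements found in the annotated UTRs of the 8 genes are shown first, since they set apart the messengers on which these proteins are known to act. The search took an unpaired C, 5 paired stem bases and the loop CAGTGN, written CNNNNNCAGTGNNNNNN on the transcript strand, with the stem bases required to pair (Watson-Crick or G-U). Sequences are from GENCODE M21 (GRCm38), 5′ to 3′, and capitals mark the loop.
Fth1, 5′ UTR, chr19:9982732-9982760, plus strand: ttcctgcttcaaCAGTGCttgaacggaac
Ftl1, 5′ UTR, chr7:45459779-45459807, minus strand: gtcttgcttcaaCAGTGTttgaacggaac
Slc40a1, 5′ UTR, chr1:45925465-45925493, minus strand: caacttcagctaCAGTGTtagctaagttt
Tfrc, 3′ UTR, chr16:32631219-32631247, plus strand: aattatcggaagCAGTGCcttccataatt
Tfrc, 3′ UTR, chr16:32631598-32631626, plus strand: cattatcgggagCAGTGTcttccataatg
Tfrc, 3′ UTR, chr16:32631663-32631691, plus strand: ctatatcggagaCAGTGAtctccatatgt
Tfrc, 3′ UTR, chr16:32631710-32631738, plus strand: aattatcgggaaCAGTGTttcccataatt
The pattern was found in 18 of 19264 genes with an annotated 5′ UTR (0.0934%) and in 110 of 19701 with a 3′ UTR (0.558%). Both ferritin chains and ferroportin carried 1 element each before the coding sequence, and Tfrc carried 4 after it. It was not found in the UTRs of Slc11a1, Hmox1, Blvrb or Slc48a1. Counts of RNA do not show translation, which is what an element in a 5′ UTR controls.

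The libraries of the 2 genotypes differ in make-up, and this bears on every level below. A library of APC-KO tumor 1 held between 8895722 and 19328572 counts, one of APC-KO tumor 2 between 13464061 and 17196820, one of APC-WT tumor 1 between 74972634 and 93568353 and one of APC-WT tumor 2 between 28018638 and 46837543. Satellite-like loci, those sharing sequence with Gm10800, took 37.9%, 38.5%, 1.32% and 7.08% of the counts in that order of tumors. Spread by exonic length, the counts that fell on 1974 olfactory and vomeronasal receptor genes amounted to a background of 17.6%, 17.9%, 0.751% and 5.05%. The 3941 genes called expressed held 33.2%, 31.8%, 81.7% and 73.6% of the counts. Expressed meant a mean over the 4 tumors of at least 10 CPM and of at least 10 times that background. A gene could thus pass through its level in 1 genotype. Levels are given as scaled CPM, counts per gene relative to the summed counts of the expressed genes, with TMM factors over them. The change between genotypes also followed transcript length, with a Spearman correlation of -0.57 across the 3941 genes, which are not independent. Fits therefore carried a length offset, which took it to -0.02, and scaled CPM carry none. Satellite share, background, depth and the length trend move with genotype and cannot be told apart from it.

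The sorted cells carried macrophage transcripts in every tumor. All 12 macrophage markers were among the expressed genes, led by lysozyme Lyz2 at 9243, 8192, 8104 and 7559 scaled CPM in the APC-KO tumors 1 and 2 and APC-WT tumors 1 and 2. The genes of 2 sort antigens, named outside the rule for genes, were low in APC-KO: Itgam (CD11b) had 276 and 277 scaled CPM in APC-KO tumors, against 1607 and 1743 in APC-WT tumors, and Adgre1 (F4/80) had 271 and 283 in APC-KO tumors, against 1276 and 1127 in APC-WT tumors. With the length offset 6 of the 12 macrophage markers were called lower and none higher in APC-KO by the test described below, which called 21.7% of expressed genes lower and 28.4% higher. Red-cell transcripts, which would matter for heme, were low, with none of the 9 erythroid markers matched above 10 times background in any tumor. They summed to 109 to 142 and 117 to 146 scaled CPM in APC-KO tumors 1 and 2, where 73.9 and 75.1 were expected. In APC-WT tumors 1 and 2 they summed to 2.60 to 3.58 and 9.10 to 13.8, where 1.47 and 10.5 were expected. Single markers lay on both sides of background. In APC-KO tumors 1 and 2 the globin gene Hba-a1 had 8.17 and 12.6 over 3.15 and 3.20, and Alas2 had 3.47 and 3.88 over 9.33 and 9.48. In APC-WT tumor 1 Hba-a1 had 0.321 over 0.0625. Apc itself spanned 88.1 to 115 and 95.9 to 113 in APC-KO tumors 1 and 2, with backgrounds of 62.6 and 63.6, against 41.0 to 46.7 and 30.2 to 37.0 in APC-WT tumors 1 and 2, with backgrounds of 1.24 and 8.86. These are host cells, so Apc does not check the labels. Fibroblast markers (led by Col3a1) summed to 347 to 458 and 570 to 629 in APC-KO tumors 1 and 2 and to 1607 to 1755 and 891 to 1019 in APC-WT tumors 1 and 2. T and NK cell markers reached at most 249 scaled CPM, B and plasma cell markers 125 and dendritic markers 312 in any library, with at most 1 gene of these lists above 10 times background in an APC-KO tumor.

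**Figure D1:**
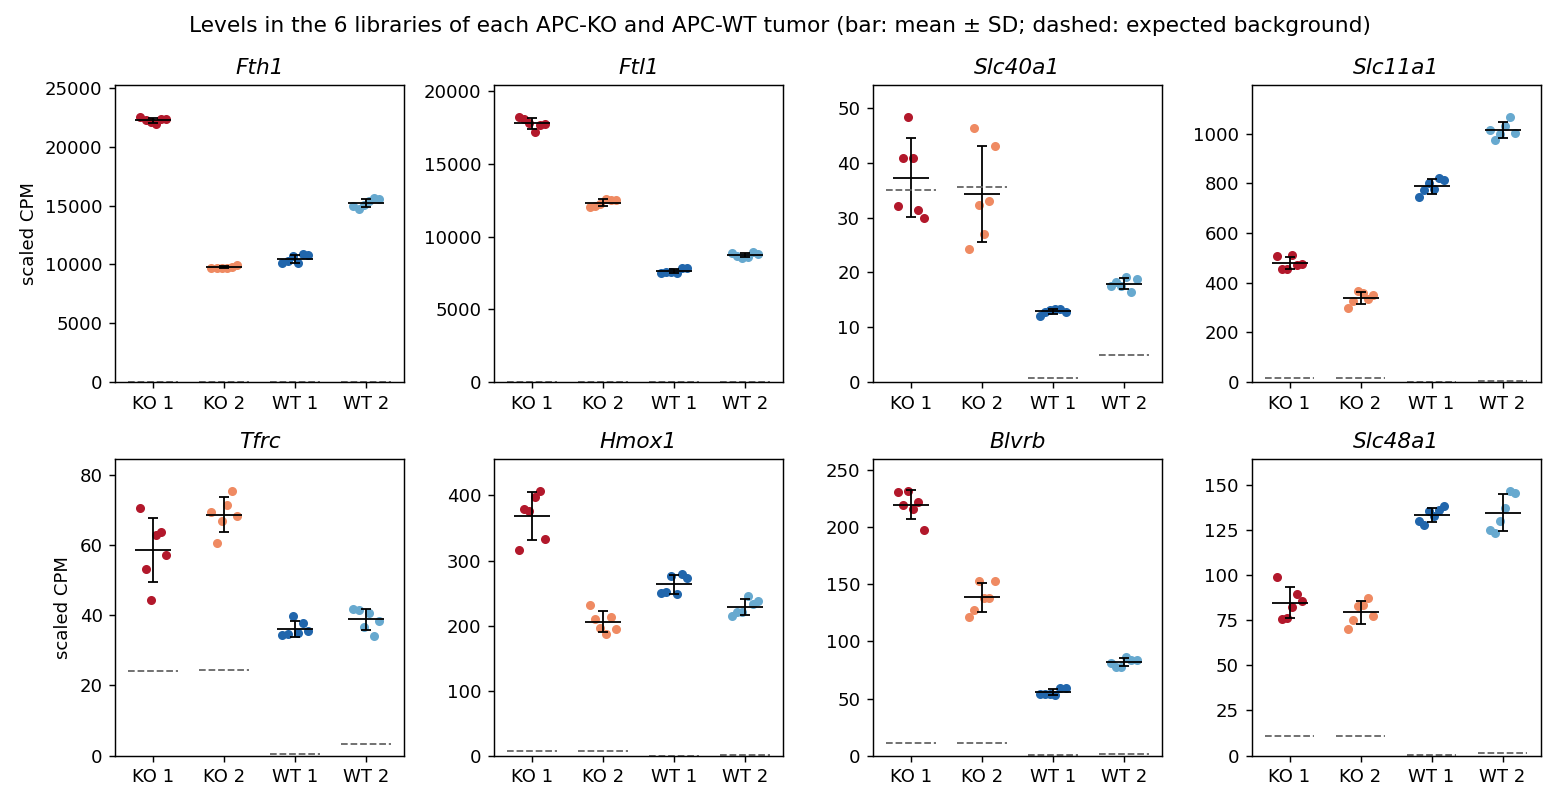
Scaled CPM of the 8 genes (y axes from 0, one scale a panel) in the 6 libraries of APC-KO tumors 1 and 2 (reds) and APC-WT tumors 1 and 2 (blues); points are libraries, bars the mean ± SD, and dashed lines the background expected from receptor genes. Slc11a1 and Slc48a1 are lower in all 12 APC-KO libraries than in any APC-WT library, as 28.4% of expressed genes are. Blvrb and Ftl1 are higher in all 12, as 28.1% of expressed genes are. Tfrc and Slc40a1, which are not among the expressed genes, are higher in all 12 too, while Slc40a1 lies on its background in APC-KO.

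Between genotypes, 3 of the 8 genes passed the test with the length offset. Slc11a1 fell to 0.573 times its APC-WT level and Slc48a1 to 0.742 times, and Blvrb rose to 1.93 times. Ferritin heavy and light chain and Hmox1 did not pass, and ferroportin and transferrin receptor were too close to background in APC-KO to enter this test. Slc48a1, at 7.92 and 7.31 times background in APC-KO tumors 1 and 2, entered it through its APC-WT levels (629 and 88.9 times). The test was edgeR's quasi-likelihood test on counts summed per tumor, with Benjamini-Hochberg adjustment over 3941 expressed genes. Of those genes 28.4% were called higher and 21.7% lower in APC-KO, 50.1% in all, so 3 of the 6 genes tested here (1 higher, 2 lower) is the share found among expressed genes at large. Without the offset 2 genes were called higher (Ftl1 and Blvrb) and 2 lower, where 32.7% and 30.8% of expressed genes were. A bulk level cannot tell fewer expressing cells from less RNA per cell.

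Ferritin was the most abundant product of the group. Per kb of the principal isoform, Fth1 ranked 3, 6, 4 and 3 among 3769 expressed genes in APC-KO tumors 1 and 2 and APC-WT tumors 1 and 2, and Ftl1 ranked 2, 2, 3 and 4. Together they took 4.20% ± 0.0911 and 2.42% ± 0.0224 of the counts of expressed genes in APC-KO tumors 1 and 2, and 1.66% ± 0.0302 and 2.28% ± 0.0281 in APC-WT tumors 1 and 2 (SD, n = 6 libraries).

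Fth1 (ENSMUSG00000024661, chr19:9980598-9985098, plus strand, GRCm38), the chain with the ferroxidase site, followed the tumor more than the genotype. Its lowest, median and highest libraries stood at 21919, 22292 and 22566 scaled CPM in APC-KO tumor 1 and at 9705, 9718 and 9955 in APC-KO tumor 2. They stood at 10147, 10503 and 10871 in APC-WT tumor 1 and at 14737, 15246 and 15643 in APC-WT tumor 2. APC-KO tumor 1 was thus the highest and APC-KO tumor 2 the lowest of the 4, with both APC-WT tumors between them and no library of one tumor inside the range of another. The log2 change between genotypes was 0.33 ± 0.46 (SE, edgeR adjusted p = 0.579), and without APC-KO tumor 1 it was -0.42 (adjusted p = 0.378). The longest Fth1 transcript retains an intron, and with an offset on the longest CCDS transcript the change was -0.058.

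Ftl1 (ENSMUSG00000050708, chr7:45457944-45459884, minus strand), the chain that helps the iron core form, had 17179, 17772 and 18252 scaled CPM in APC-KO tumor 1 and 12026, 12381 and 12612 in APC-KO tumor 2. The lowest, median and highest APC-WT libraries had 7482, 7561 and 7842 in tumor 1 and 8548, 8741 and 8939 in tumor 2. All APC-KO libraries lay above all APC-WT libraries, which held for 28.1% of expressed genes. Its longest transcript has 968 bases, and short genes as a class read higher in APC-KO. With the length offset its change was -0.17 ± 0.24 (edgeR adjusted p = 0.580), and without it 0.90 ± 0.25 (adjusted p = 0.0303). Whether light chain messenger differs between genotypes therefore turns on how the length trend is treated.

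**Figure D2:**
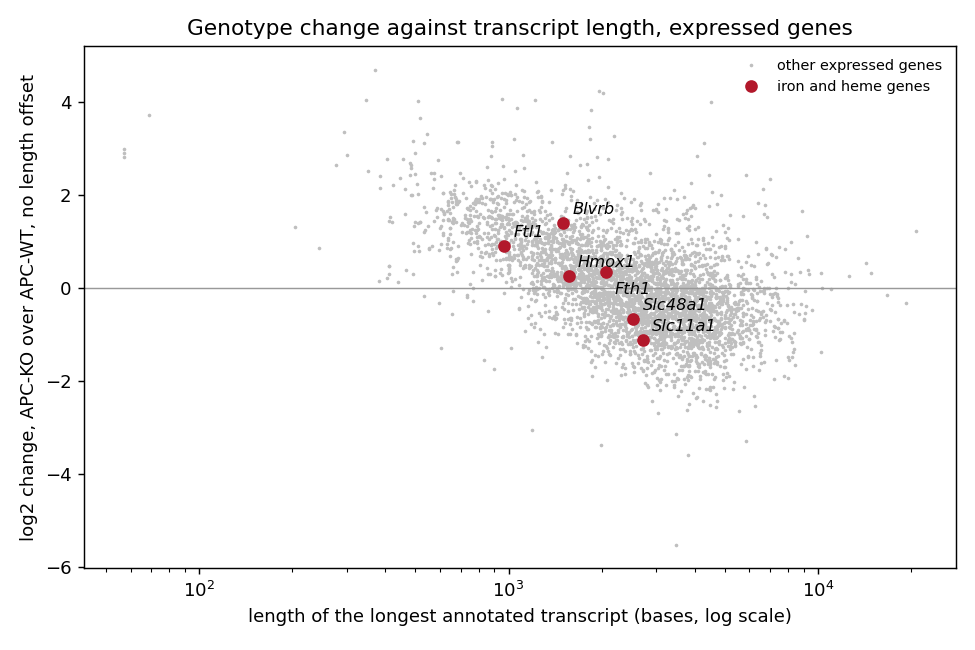
Log2 change of APC-KO over APC-WT without the length offset (y axis) against the length of the longest transcript in bases (x axis, log scale) for 3941 expressed genes (grey), with the 6 expressed iron and heme genes in red. Short genes lie above 0 and long genes below it: Ftl1 (0.90) lies in the band of genes of its length, and Blvrb (1.41) towards the upper side of its own.

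The 2 ferritin chains did not keep one ratio. Counts of Fth1 were 1.25 ± 0.0178 and 0.791 ± 0.0141 times those of Ftl1 in APC-KO tumors 1 and 2, and 1.38 ± 0.0236 and 1.74 ± 0.0391 times in APC-WT tumors 1 and 2 (SD, n = 6 libraries). The ranges of the 4 tumors were apart, from 0.770 to 0.808 in APC-KO tumor 2 up to 1.69 to 1.79 in APC-WT tumor 2. These ratios carry no length offset, and the 2 messengers differ in length, so the order between genotypes shares the limit given for Ftl1.

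Near-identical copies limit what an Ftl1 count means. The stretch below, positions 438 to 497 of the 549 coding bases in GENCODE M21, holds one of the 2 places where Ftl1-ps1 (chromosome 13) differs from Ftl1 (chromosome 7), and the capital marks that base.
Ftl1: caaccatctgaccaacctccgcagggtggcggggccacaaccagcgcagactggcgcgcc
Ftl1-ps1: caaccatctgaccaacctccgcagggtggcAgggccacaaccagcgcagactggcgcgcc
The 2 coding sequences are 99.6% identical with a run of 467 identical bases, and Ftl2-ps on chromosome 4 is 98.7% identical with 7 differences. Ftl1-ps1 was counted at 843 and 595 scaled CPM in the APC-KO tumors 1 and 2 and 350 and 392 in APC-WT tumors 1 and 2, which is 4.76%, 4.83%, 4.57% and 4.48% of the Ftl1 counts. Ftl2-ps was counted at 1.60% to 1.67% and Gm15590, a further copy on chromosome 17, at 0.914% to 0.963% of Ftl1. The share of each copy hardly moved while Ftl1 itself differed more than 2-fold between tumors. Reads within the identical coding stretches of Ftl1-ps1 and Ftl2-ps cannot be told apart from Ftl1 reads. The UTRs, and Gm15590, were not compared base by base. Adding every copy that shares sequence left the genotype change of Ftl1 at -0.17.

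Iron import and export through Tfrc and Slc40a1 were at the edge of what these libraries resolve. Slc40a1 (ENSMUSG00000025993, chr1:45908068-45926523, minus strand) had 29.9, 36.5 and 48.4 scaled CPM in APC-KO tumor 1 and 24.3, 32.6 and 46.4 in APC-KO tumor 2 (lowest, median and highest library), where the expected background was 34.95 and 35.5. In APC-WT tumor 1 it had 12.02, 13.0 and 13.3 and in tumor 2 it had 16.4, 17.9 and 19.2, over backgrounds of 0.693 and 4.95. Ferroportin messenger was thus 18.6 and 3.63 times background in APC-WT tumors and 1.07 and 0.967 times in APC-KO tumors. The middle 90% of the receptor genes spanned 0.314 to 2.32 times expectation in APC-KO tumor 1 and 0.322 to 2.32 in APC-KO tumor 2, so ferroportin was not detectable at this depth in APC-KO, which is not the same as absent.

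Tfrc (ENSMUSG00000022797, chr16:32608920-32632794, plus strand), with its 4 elements shown above, stood above background in all tumors. It had 44.4, 60.04 and 70.5 scaled CPM in APC-KO tumor 1 and 60.8, 68.9 and 75.6 in tumor 2, with backgrounds of 24.02 and 24.4. In APC-WT tumor 1 it had 34.5, 35.1 and 39.9 and in tumor 2 it had 34.1, 39.4 and 41.8, with backgrounds of 0.476 and 3.40. All APC-KO libraries lay above all APC-WT libraries before background was taken off, which held for 28.1% of expressed genes, a class without Tfrc. With the expected background subtracted, the means were 34.7 and 44.3 in APC-KO tumors and 35.7 and 35.5 in APC-WT tumors, without separation of the genotypes. In a fit of 53705 genes without length offset or background subtraction, Slc40a1 (1.21 ± 0.40, edgeR adjusted p = 0.0229) and Tfrc (0.79 ± 0.24, adjusted p = 0.0180) were called higher. There 59% of all genes were called higher and the median gene stood at 3.57, so both genes lay below the general shift. With a looser limit (5 CPM and 5 times background), the length offset and no background subtraction, Tfrc was tested among 6998 genes and called higher (0.86 ± 0.12, adjusted p = 0.00453), well above the median gene of that fit at 0.011; 29.6% of those genes were called higher. The direction for Tfrc relative to other genes therefore differs between these fits.

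Slc11a1 (ENSMUSG00000026177, chr1:74375195-74386062, plus strand) was lower in APC-KO. C57BL/6 mice carry a natural loss-of-function form of this transporter, so the count is of a messenger whose protein is impaired in the host. The lowest, median and highest libraries had 454, 473 and 511 scaled CPM in APC-KO tumor 1 and 296, 344 and 365 in APC-KO tumor 2. In APC-WT tumor 1 they had 743, 788 and 821, and in APC-WT tumor 2 they had 973, 1008 and 1068. No range met another, and APC-KO libraries lay below APC-WT libraries throughout, as was the case for 28.4% of expressed genes. The log2 change was -0.80 ± 0.25 (edgeR adjusted p = 0.0492) with the length offset and -1.12 ± 0.25 (adjusted p = 0.0156) without it. The call was lost with background subtracted (-0.65, adjusted p = 0.0898), and when APC-KO tumor 1 (adjusted p = 0.0701), APC-KO tumor 2 (0.177) or APC-WT tumor 2 (0.117) was left out.

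Slc48a1 (ENSMUSG00000081534, chr15:97778520-97792692, plus strand), which brings heme from the phagolysosome to the cytosol, was also lower in APC-KO. Its libraries had 75.6, 83.9 and 98.8 scaled CPM in APC-KO tumor 1 and 70.1, 80.0 and 87.4 in APC-KO tumor 2, with backgrounds of 10.7 and 10.9. They had 128, 134 and 138 in APC-WT tumor 1 and 123, 134 and 147 in APC-WT tumor 2. Mean levels were 7.92 and 7.31 times background in APC-KO tumors 1 and 2, and 629 and 88.9 times in APC-WT tumors 1 and 2. The limit of 10 times background was set on the mean over the 4 tumors, so Slc48a1 entered the test through its APC-WT levels. The 2 tumors of each genotype overlapped and all APC-KO libraries lay below all APC-WT libraries, which held for 28.4% of expressed genes. No other gene of the 6 tested had overlapping tumors within both genotypes. Its log2 change was -0.43 ± 0.10 (edgeR adjusted p = 0.0247) with the offset and -0.68 ± 0.10 (adjusted p = 0.00441) without it. Leaving out APC-KO tumor 1, APC-KO tumor 2, APC-WT tumor 1 or APC-WT tumor 2 gave changes between -0.51 and -0.41 with adjusted p of 0.0845, 0.130, 0.0536 and 0.0552. Hdac7 overlaps Slc48a1 on the opposite strand, at 53.9 and 64.8 scaled CPM in the APC-KO tumors and 35.8 and 33.1 in APC-WT tumors, and without a stated strand reads of the shared stretch may be of either gene.

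Hmox1 (ENSMUSG00000005413, chr8:75093621-75100589, plus strand), the heme-induced oxygenase, did not separate the genotypes. It had 315, 378 and 408 scaled CPM in APC-KO tumor 1 and 187, 203 and 232 in APC-KO tumor 2, against 249, 263 and 280 in APC-WT tumor 1 and 214, 227 and 245 in APC-WT tumor 2. APC-KO tumor 1 lay above all other libraries and APC-KO tumor 2 overlapped the lower end of APC-WT tumor 2. The log2 change was -0.17 ± 0.31 (edgeR adjusted p = 0.683) with the offset and 0.25 ± 0.31 (adjusted p = 0.515) without it.

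Blvrb (ENSMUSG00000040466, chr7:27447978-27466144, plus strand), which reduces biliverdin and flavins, was higher in APC-KO. The lowest, median and highest libraries had 198, 220 and 232 scaled CPM in APC-KO tumor 1 and 121, 138 and 153 in APC-KO tumor 2. They had 53.4, 54.1 and 58.9 in APC-WT tumor 1 and 77.4, 82.4 and 86.0 in APC-WT tumor 2. No 2 tumors overlapped, and all APC-KO libraries lay above all APC-WT libraries, which held for 28.1% of expressed genes. The rank of Blvrb per kb was 384 and 583 in APC-KO tumors and 1570 and 1054 in APC-WT tumors, of 3769. The log2 change was 0.95 ± 0.27 (edgeR adjusted p = 0.0418) with the offset and 1.41 ± 0.30 (adjusted p = 0.0139) without it. The principal isoform of Blvrb has 1028 bases and its longest transcript 1504, and with the offset on the principal isoform the change was 0.43 ± 0.28 (adjusted p = 0.267). The call was also lost without APC-KO tumor 1 (0.58, adjusted p = 0.180), APC-KO tumor 2 (1.18, 0.0578) or APC-WT tumor 1 (0.73, 0.0977), and with the looser limit for expressed genes (0.59, 0.108).

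**Figure D3:**
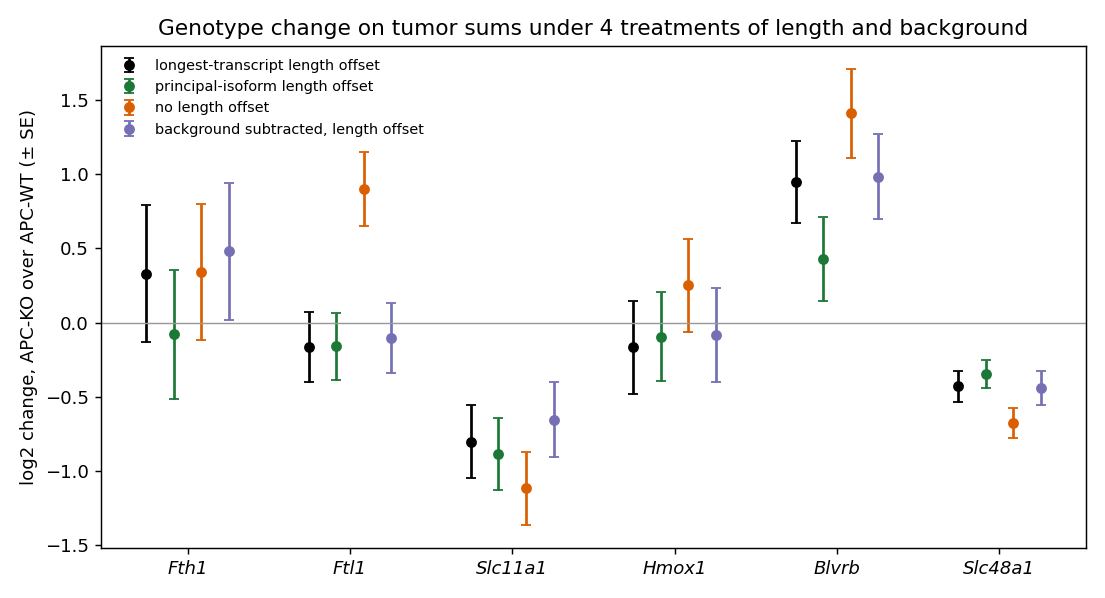
Log2 change of APC-KO over APC-WT on tumor sums (2 against 2) for the 6 expressed genes, with bars of ± SE, under the longest-transcript offset (black), the principal-isoform offset (green), no offset (orange) and background subtraction with the offset (violet). Slc11a1 and Slc48a1 lie below 0 and Blvrb above 0 under all 4, while Ftl1 moves between -0.17 and 0.90.

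The ratio of the 2 heme-breakdown enzymes separated the genotypes, as Blvrb did and Hmox1 did not. Counts of Hmox1 were 1.68 ± 0.177 and 1.503 ± 0.248 times those of Blvrb in APC-KO tumors 1 and 2, against 4.74 ± 0.170 and 2.80 ± 0.0877 times in APC-WT tumors 1 and 2 (SD, n = 6 libraries). The highest APC-KO library was at 1.91 and the lowest APC-WT library at 2.63. The longest transcripts of the 2 genes are 1569 and 1504 bases long, and their principal isoforms 1569 and 1028 bases long, so the ratio shares the dependence on isoform length given for Blvrb.

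The single tumors show what stands behind these means. In the fit of 24 libraries each APC-KO tumor was set against each APC-WT tumor, and the 4 contrasts share tumors, so they are not independent. Their p-values measure the spread between libraries of a tumor only, so a call there says little: of expressed genes 43.2%, 42.4%, 41.6% and 41.8% were called higher and 38.9%, 37.6%, 39.6% and 38.2% lower in APC-KO tumor 1 over APC-WT tumors 1 and 2 and APC-KO tumor 2 over them. Slc11a1 was lower in all 4 pairs, at -0.40 ± 0.04 and -0.76 ± 0.04 for APC-KO tumor 1 over APC-WT tumors 1 and 2 and at -0.92 ± 0.04 and -1.28 ± 0.04 for APC-KO tumor 2 over them. Slc48a1 was lower by a like amount in each, from -0.39 ± 0.06 to -0.53 ± 0.06. Blvrb was higher in each, from 0.35 ± 0.06 (APC-KO tumor 2 over APC-WT tumor 2) to 1.46 ± 0.06 (APC-KO tumor 1 over APC-WT tumor 1). Fth1 took both signs, at 1.07 ± 0.02 and 0.55 ± 0.02 for APC-KO tumor 1 over APC-WT tumors 1 and 2 and at -0.14 ± 0.02 and -0.66 ± 0.02 for APC-KO tumor 2 over them. Hmox1 did so too, at 0.03 ± 0.06 (edgeR adjusted p = 0.698) and 0.31 ± 0.06 for APC-KO tumor 1 and at -0.80 ± 0.06 and -0.51 ± 0.06 for APC-KO tumor 2. Ftl1 ran from 0.12 ± 0.02 (APC-KO tumor 1 over APC-WT tumor 1) to -0.53 ± 0.02 (APC-KO tumor 2 over APC-WT tumor 2), and without the offset it was higher in every pair, from 0.50 to 1.22.

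Within APC-KO, 5 of the 6 expressed genes were lower in tumor 2 than in tumor 1 and none was higher. Fth1 fell by 1.21 ± 0.02 on the log2 scale, Hmox1 by 0.82 ± 0.06, Blvrb by 0.64 ± 0.06, Slc11a1 by 0.52 ± 0.04 and Ftl1 by 0.48 ± 0.02, with edgeR adjusted p from 7.31e-25 to 1.20e-09 over libraries. Slc48a1 did not pass (-0.12 ± 0.07, adjusted p = 0.165). Of all expressed genes 18.3% were called lower and 15.5% higher in this contrast. Neutrophil markers moved with it: the 8 markers summed to 228 to 283 scaled CPM in APC-KO tumor 2 and 469 to 541 in APC-KO tumor 1, led by Csf3r (88.0) in tumor 2 and S100a9 (187) in tumor 1, with 2 of 8 above 10 times background in each and none at 0. The 8 T and NK cell markers moved the other way, at 226 to 249 in tumor 2 and 97.8 to 135 in tumor 1, led by Nkg7 (59.2) in tumor 2 and Cd3g (25.8) in tumor 1, with 1 of 8 above 10 times background in tumor 2 and none in tumor 1, and none at 0. So did the 8 epithelial markers, led by Krt8 in both, at 341 to 375 in tumor 2 and 261 to 320 in tumor 1 (1 and 0 of 8 above 10 times background, none at 0), and the 8 fibroblast markers in the ranges given above, none of them above 10 times background or at 0. The part of these cell types in the difference was not tested.

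Within APC-WT, tumor 2 was higher than tumor 1 for 4 of the 6 genes and lower for 1. Fth1 rose by 0.52 ± 0.02, Blvrb by 0.47 ± 0.05, Slc11a1 by 0.36 ± 0.04 and Ftl1 by 0.16 ± 0.02 on the log2 scale, and Hmox1 fell by 0.28 ± 0.06 (edgeR adjusted p = 0.000364). Slc48a1 did not pass (0.01 ± 0.06, adjusted p = 0.888). Of all expressed genes 19.8% were called higher and 27.6% lower. Here neutrophil markers summed to 550 to 633 in APC-WT tumor 2 and 306 to 330 in APC-WT tumor 1, and the 8 epithelial markers, led by Krt8, to 627 to 668 in tumor 2 and 185 to 204 in tumor 1. Of the neutrophil markers 6 of 8 and of the epithelial markers 8 of 8 were above 10 times background in both tumors and none was at 0. T and NK cell markers, led by Gzmb, summed to 48.8 to 56.0 in tumor 2 and 24.5 to 31.2 in tumor 1, with 2 and 5 of 8 above 10 times background, and fibroblast markers were lower in tumor 2 in the ranges given above, with 4 and 7 of 8. The 6 B and plasma cell markers summed to 48.3 to 63.9 in tumor 2 and 22.8 to 27.4 in tumor 1 (2 of 6 above 10 times background in each), and the 7 dendritic markers to 61.3 to 70.5 in tumor 2 and 23.6 to 27.8 in tumor 1 (1 and 2 of 7). None of these was at 0, and the part of any of these cell types in the difference was not tested.

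**Figure D4:**
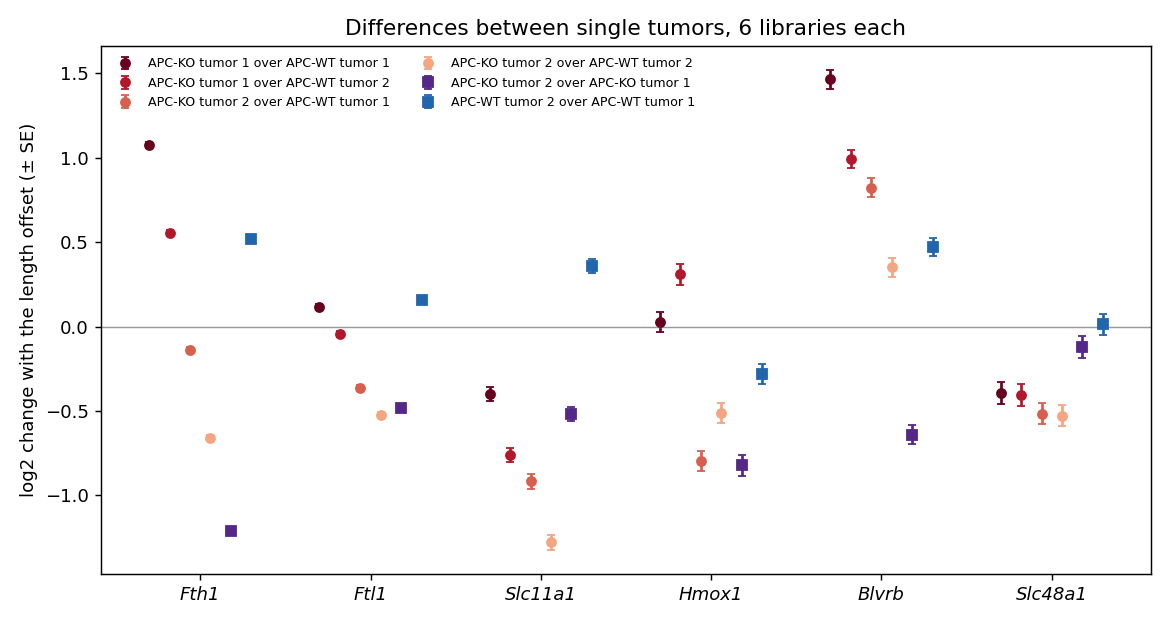
Log2 change with the length offset (± SE over libraries) for the 6 expressed genes in the 4 pairs of an APC-KO over an APC-WT tumor (red circles) and between the tumors of 1 genotype (squares; violet APC-KO, blue APC-WT, tumor 2 over tumor 1). For Fth1 the squares lie at -1.21 and 0.52 and the pairs take both signs, from -0.66 to 1.07. For Slc48a1 the squares lie near 0 and all 4 pairs lie between -0.53 and -0.39.

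Genes whose length-adjusted log2 levels ran most like each member over the 24 libraries were as follows, as a description, since the libraries of a tumor share their RNA and 4 tumors set the pattern. Fth1 ran with Smox (Pearson r = 0.980), Irf8 (0.980) and Ccl5 (0.978), and Ftl1 with Grina (0.971), Ftl1-ps1 (0.970) and C3 (0.970). Slc11a1 ran with H2-Aa (0.984), Cd274 (0.984) and Gm10359 (0.981), and Slc48a1 with Oaz1-ps (0.956), Tcn2 (0.947) and Il4ra (0.945). Blvrb ran with Prdx5 (0.986), Inhba (0.981) and F10 (0.981), and Hmox1, with the loosest matches, with Srgn (0.908), Slfn2 (0.886) and Hilpda (0.884). Among the members themselves, Slc11a1 and Slc48a1 were the most alike (r = 0.894) and Blvrb and Slc48a1 the most opposed (r = -0.66). Fth1 and Ftl1 reached 0.737.

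The wider iron and heme pathway was read from 7 lists of 64 genes in all, of which 23 were expressed. With the length offset 7 of the 23 were called higher and 1 lower in APC-KO, and their median log2 change was 0.18, against 0.04 over all expressed genes. Of all expressed genes 28.4% were called higher and 21.7% lower, so the number higher is near the general share. All 7 genes called higher lay below 10 times background in both APC-KO tumors and passed the limit for expressed genes through APC-WT levels. In APC-KO tumors 1 and 2 Mcoln1 had 114 and 110 scaled CPM over 29.3 and 29.8, and Mafg 210 and 190 over 21.8 and 22.1. The main fit takes no background off. Without the offset 6 were higher and 5 lower, where 32.7% and 30.8% of expressed genes were. Glrx5, Mafg and Nfe2l2, the 3 genes of these lists whose call held when any 1 tumor was left out, kept it under 18 of 19 alternatives, all but TMM over all genes, while none of the 3 called members held it so.

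Of 10 genes of iron uptake and reduction, 4 were expressed and 1 passed. Mcoln1, a lysosomal channel that releases iron, was higher (0.38 ± 0.10, edgeR adjusted p = 0.0316). The call was lost without the offset (0.02, adjusted p = 0.849) and on the principal-isoform offset (0.098, adjusted p = 0.436). It was also lost with background subtracted (0.19, adjusted p = 0.212) and without any 1 of the 4 tumors (changes from 0.32 to 0.42). Lcn2, which binds iron-laden siderophores, had 230 and 77.8 scaled CPM in the APC-KO tumors 1 and 2 and 15.2 and 56.6 in APC-WT tumors 1 and 2 and did not pass (1.53 ± 0.78, adjusted p = 0.161). Transferrin itself (Trf) had 828 and 1012 in APC-KO tumors and 2030 and 1195 in APC-WT tumors (adjusted p = 0.198), and Lrp1, the receptor for hemopexin, had an adjusted p of 0.393. In the export and hepcidin list 1 of 8 genes was expressed, Hfe (-0.06 ± 0.27, adjusted p = 0.854). Of 7 genes of iron sensing and ferritin turnover 3 were expressed and none passed: Aco1, which is iron regulatory protein 1 in its cluster-free form, stood at -0.25 ± 0.12 (adjusted p = 0.131), the iron chaperone Pcbp1 at -0.37 ± 0.18 (0.151) and Fbxl5, which targets iron regulatory protein 2, at -0.24 ± 0.43 (0.665). Without the offset Aco1 was lower (-0.78, adjusted p = 0.00491).

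With the length offset, mitochondrial iron genes included the largest change among the 23 expressed genes of these lists; without it the change of Lcn2 (2.11, adjusted p = 0.0785) was larger. Glrx5, which hands on iron-sulfur clusters, had 92.0 and 111 scaled CPM in APC-KO tumors, against 30.5 and 35.1 in APC-WT tumors, with backgrounds of 14.3, 14.5, 0.283 and 2.02. Its log2 change was 2.04 ± 0.14 (edgeR adjusted p = 0.00230) with the offset and 1.67 without it. Slc25a28, mitoferrin 2, was higher with the offset (0.90 ± 0.20, adjusted p = 0.0205) and not without it (0.39, adjusted p = 0.148), on the principal-isoform offset (0.02, adjusted p = 0.938) or without APC-KO tumor 1 or 2 (adjusted p = 0.110 and 0.111). The scaffold Iscu did not pass (-0.29 ± 0.12, adjusted p = 0.0947). These were 3 expressed genes of 10.

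Of 8 heme synthesis genes, 2 were expressed and 1 was called higher with the offset. Ppox, the last oxidase before iron is inserted, rose with the offset (0.88 ± 0.15, edgeR adjusted p = 0.00963) and not without it (0.31, adjusted p = 0.102), on the principal-isoform offset (0.20, adjusted p = 0.261) or without APC-KO tumor 1 or 2 (adjusted p = 0.0743 and 0.0595). Alas1, the first and rate-limiting step outside red cells, did not pass with the offset (-0.36 ± 0.21, adjusted p = 0.203) and was lower without it (-0.83, adjusted p = 0.0229).

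Of 9 further genes of heme scavenging, transport and breakdown, 3 were expressed and none passed with the offset. Blvra, the second biliverdin reductase, had 104 and 120 scaled CPM in the APC-KO tumors and 67.1 and 59.6 in APC-WT tumors, a change of 0.34 ± 0.15 (edgeR adjusted p = 0.111), and Hmox2, the constitutive oxygenase, stood at 0.20 ± 0.13 (adjusted p = 0.269). Both were higher without the offset (0.85 and 0.48, adjusted p = 0.00469 and 0.0232). Haptoglobin (Hp) split the APC-WT tumors, with 147 and 140 scaled CPM in the APC-KO tumors and 34.1 and 105 in APC-WT tumors (adjusted p = 0.478).

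Nrf2 and Bach1, which set Hmox1 and ferritin transcription through small Maf partners, were followed by 12 genes, 7 of them expressed, 3 higher and 1 lower. Nfe2l2, which encodes Nrf2, had 304 and 309 scaled CPM in the APC-KO tumors and 850 and 752 in APC-WT tumors, a change of -1.14 ± 0.15 (edgeR adjusted p = 0.00521). Its partner Mafg moved the other way, with 210 and 190 in APC-KO tumors and 70.3 and 86.4 in APC-WT tumors (1.94 ± 0.19, adjusted p = 0.00327). The cystine carrier Slc7a11 rose to 423 and 230 in APC-KO tumors, against 136 and 173 in APC-WT tumors (1.44 ± 0.36, adjusted p = 0.0291), a call lost without APC-KO tumor 1 (0.92, adjusted p = 0.106) or APC-WT tumor 1 (1.19, adjusted p = 0.0674). The Nrf2 inhibitor Keap1 was higher with the offset (0.53 ± 0.11, adjusted p = 0.0178) and not without it (0.03, adjusted p = 0.814) or without APC-KO tumor 1 or 2 (adjusted p = 0.0585 and 0.143). Nfe2l2, Mafg and Slc7a11 kept their calls without the offset, at -1.36, 1.35 and 1.11.

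Promoter windows of RefSeq (GRCm38.p6, 250 bases before to 50 after a start) were at hand for 5 of the 8 genes, Slc11a1, Blvrb, Ftl1, Tfrc and Fth1, in 8 windows. The antioxidant response core TGACNNNGC and the E-box CACGTG were in none of them on either strand, against 12.4% and 7.15% of 32851 windows. The windows counted leave out 1 chromosome, which holds none of these genes. The hypoxia response core ACGTG, which also lies inside the E-box, was in 1 window of Blvrb and in both of Tfrc, which overlap there, against 19.6% of the windows counted. Letters of this kind are a description of the window and show no binding.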

How the data were processed

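Per the labels, the authors deposited unnormalized counts of 55487 Ensembl IDs for 24 libraries, made from total RNA by an ultra low input Nextera XT protocol. The submitters' processing notes name bcl2fastq 2.20.0, HISAT2, StringTie and build mm9; strand, settings and annotation are not given in the sources used here. Symbols, lengths and positions are from GENCODE M21 (GRCm38) by gene ID (55227 matched), not from mm9.

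From the counts, edgeR 4.0.16 (R 4.3.3) fitted tumor sums (2 APC-KO against 2 APC-WT) and the 24 libraries with a mean per tumor, on 3941 expressed genes with TMM and a loess length offset (span 0.5, longest transcript), with Benjamini-Hochberg adjustment at 0.05. SE is the log2 change over the square root of F. DESeq2 1.42.0 was an alternative. Satellite-like loci (12, with a share of 15-mers in common with Gm10800 of 0.3 or more) were removed from the expressed genes, a step added after the counts were seen. Per length, ranks used the principal isoform. Python 3.11.15 read sequences and drew the plots.

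Members and lists were chosen with earlier results of these data known; 1 list gene is not reported here and was left out of its list. Named besides the 8 genes were up to 4 expressed genes of each list by smallest p, 3 most correlated genes per member, 3 ferritin copies and the top gene of a marker list. Pairs of libraries of a tumor differed beyond sampling noise (chi-square per degree of freedom at least 6.45). Libraries were kept apart in the library fit and summed per tumor for the genotype test. Library numbers did not pair samples across tumors (correlations from -0.47 to 0.72).

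On simulated counts the test on tumor sums with the offset found 81% of genes changed by 1 log2 unit and 100% of those changed by 2. It also called 25 unchanged genes, which is 0.668% of the unchanged genes. Without the offset, under a simulated length trend, 1186 unchanged genes (31.7% of them) were called, and in the library fit with the offset 125 (3.34%). These are shares of unchanged genes and not of calls. With the offset on tumor sums the 25 stood beside 81 and 100 changed genes found. The simulated trend was the loess fit of these data on the longest transcript, the same form that the offset takes. Each size of change was given to 100 of 3941 genes, with a common dispersion and no difference in background between tumors. In the real fit 50.1% of genes were called. These rates therefore cannot show whether the length offset is right for the real counts.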

Additional observations from a re-analysis of the deposited data

Results flagged for a closer look

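One value of the 32 groups of 6 libraries (8 genes in 4 tumors) stood apart from its group by Dixon's criterion, at which chance flags about 1 group in 20. Library 6 of APC-KO tumor 2 had 9955 scaled CPM of Fth1, against 9747 in the nearest library and a median of 9718. The SD of that group is 97.4 scaled CPM, so the gap is small beside the distance to every other tumor.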

How the results depend on the processing

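Slc11a1 and Slc48a1 were lower in APC-KO under all 19 alternatives to the main fit and Blvrb higher under 18 of 19. Their calls were lost in 6, 6 and 8. Among the 19 is TMM over all genes, which put the median expressed gene at -4.01, so a sign there says little. In that fit Slc11a1 stood at -5.02, Slc48a1 at -4.69 and Blvrb at -2.44. Of the 8 genes 1 was called higher and 2 lower with the offset, where 28.4% and 21.7% of expressed genes were. The number higher was 2 without the offset, with background subtracted and no offset, and by DESeq2 without the offset. Of 3941 expressed genes 1289, 1284 and 1479 were called higher in these 3 fits. The number was 0 with the principal-isoform or CCDS lengths, where 930 of 3769 and 972 of 3713 genes were called higher. It was 4 in both fits of all genes (filtered or not), where Ftl1, Slc40a1 and Tfrc join Blvrb. There 31709 of 53705 (59%) and 30602 of 55060 genes were called higher. With the looser limit the number higher stayed 1, where 29.6% of genes were. Tfrc (0.86) took the place of Blvrb (0.59, edgeR adjusted p = 0.108), and the median of the 3941 genes moved to -0.36. The number lower was 1 with background subtracted, where 869 of 3941 genes were. With tumor number as a replicate block, 0 were called higher and 0 lower (adjusted p = 0.0901 for Slc11a1, 0.0578 for Blvrb and 0.0806 for Slc48a1). Tumors with 1 number did not deviate together (r = -0.41); the crossed pairing called 1367 genes higher and 1089 lower, the uncrossed block 828 and 606. The library-number replicate block changed no call or sign of the 36 single-tumor values, and 3 of 24 libraries correlated best with their own number.

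TMM over all genes moved the median expressed gene to -4.01 and called 0 genes either way (17844 at unadjusted p under 0.05 by edgeR), 0 of the 8 included; there Fth1 was at -3.52, Blvrb at -2.44, Slc40a1 at -2.66 and Tfrc at -3.20, all less negative than that median. The 7 pathway genes called higher stood between -3.99 and -2.27 there (Mcoln1 -3.97, Slc25a28 -3.47, Glrx5 -2.27, Ppox -3.63, Keap1 -3.99, Mafg -2.56, Slc7a11 -2.81), and Mcoln1 was also -0.19 with background subtracted and no offset and -0.099 with the looser limit. Fth1 also turned to -0.079 with the principal-isoform offset, -0.058 with CCDS lengths and -0.032 with the looser limit. Ftl1 turned to 0.90 without the offset and in both fits of all genes, 0.89 by DESeq2 without the offset, 1.09 with background subtracted and no offset, and 0.083 with exonic length. Hmox1 turned to 0.25 in the first 3 of these, 0.24 by DESeq2 and 0.41 with background subtracted and no offset. Without the offset, and equally in the fit of all genes, Ftl1 was 1.03 (APC-KO tumor 1 over APC-WT tumor 2), 0.69 (APC-KO tumor 2 over APC-WT tumor 1) and 0.50 (APC-KO tumor 2 over APC-WT tumor 2). The cause was not tested beyond the construction of these settings.

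Leaving out each tumor in turn, with a lone tumor assumed to vary like the others, gave 0 to 1 of the 8 genes higher and 0 to 1 lower, and 388 to 1055 expressed genes higher and 264 to 870 lower, against 1119 and 855. Fth1 then ran from -0.42 to 0.76, Ftl1 from -0.45 to 0.0046 and Hmox1 from -0.66 to 0.15. Counts over all genes also moved: 31709 higher and 1479 lower scaled to the expressed genes, 30602 and 1445 without a filter, 2069 and 1959 with the looser limit of 5 CPM, and 1474 lower by DESeq2 without the offset. In the fit of all genes the 4 pairs called 41994, 41666, 42055 and 41792 genes higher (APC-KO tumor 1 over APC-WT tumors 1 and 2, then APC-KO tumor 2 over them), and APC-WT tumor 2 over tumor 1 35807 higher and 2073 lower. Depth limits Slc40a1 and Tfrc in APC-KO, where 1.07 and 0.967 times, and 2.44 and 2.82 times, the expected background were counted.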
